A study of Mus musculus with 12 samples.

Results

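The genes described here are 8 regulators through which hepatocytes sense foreign chemicals and hormones, chosen by name: the aryl hydrocarbon receptor Ahr, its DNA-binding partner Arnt, its repressor Tiparp, the xenobiotic receptors Nr1i2 (PXR) and Nr1i3 (CAR), their shared partner Rxra, the orphan receptor Rora and the estrogen receptor Esr1. They were 8 of the 54839 features in the table, and 8 of 8 passed the filter on low counts. Their levels were measured by bulk RNA-seq in 12 libraries of sorted hepatocytes from male p16-Tom mice, in 4 groups of 3. All mice were heterozygous for p16-CreERT2 and R26-CAG-LSL-tdTomato-WPRE and received tamoxifen at 80 mg/kg, so that cells with an active p16Ink4a promoter at that time turned red (Tom+) and the others did not (Tom-). The label thus records the promoter at the time of tamoxifen, not later. The groups were Tom- oil and Tom+ oil, from mice given corn oil, and Tom- CCl4 and Tom+ CCl4, from mice injected with 1 mL/kg of carbon tetrachloride every 3 days for 4 weeks, a schedule that injures the liver and leads to fibrosis. Ages were not given in the sources used here. Nothing in them says that replicates are separate mice, so p-values measure the spread between these libraries, which may be technical.

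In the resting cell the AhR protein is held in the cytosol by HSP90 and its co-chaperones, and after binding a ligand it enters the nucleus, pairs with ARNT and switches on detoxification genes such as Cyp1a1, together with Tiparp, which feeds back on AhR. PXR and CAR bind DNA as pairs with RXRα and induce Cyp3a and Cyp2b or Cyp2c enzymes, while RORα acts alone on genes of bile acid and lipid metabolism and of the circadian clock, and ERα mediates the effects of estrogen on liver lipid handling. Many of the enzymes these receptors control are more abundant near the central vein (zone 3) than near the portal tract (zone 1), and CCl4 itself is activated by zone 3 enzymes.

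Of the 8 receptor genes, Ahr alone passed both thresholds in any contrast without the replicate number as a block. The thresholds were a log2 fold change beyond 0.75 and an adjusted p under 0.05 in edgeR's quasi-likelihood test over all genes. After CCl4 Ahr was 1.69-fold higher in the Tom+ than in the Tom- fraction. In that contrast 1 of 8 members was called, against 1.96% of all 17121 genes tested. In CCl4 against oil 0 of 8 members were called in Tom- hepatocytes, where 7.92% of all genes were, and 0 of 8 in Tom+ hepatocytes, where 5.24% were. Between Tom+ and Tom- of oil-treated mice 0 of 8 members and 0% of all genes were called by edgeR, while 1198 genes had an unadjusted p under 0.05 and DESeq2 called 15. For the difference of the Tom+ against Tom- contrast between CCl4 and oil, termed the interaction, 0 of 8 members and 1.17% of all genes were called. With the replicate number as a block 2 of 8 members, Ahr and Nr1i3, and 5.48% of all genes were called in the interaction, 1 of 8, Ahr, and 3.98% in Tom+ against Tom- of CCl4-treated mice, and 0 of 8 and 0.234% in oil. With the Tom+ and Tom- libraries of each number summed, 0 of 8 members and 4.78% of the 17743 genes tested were called between CCl4 and oil. The median log2 fold change of the 8 genes lay between -0.15 and 0.09 in these 6 contrasts, beside a median of all genes between -0.01 and 0.01.

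Total counts ranged from 37568584 to 75331424 per library (median 47910752), and every member was counted well above the limit set by depth, with 176 counts as the lowest value (Tiparp in Tom- CCl4 replicate 2). The tdTomato transcript went against the label of 2 oil libraries: it was at 1794 CPM (counts relative to the TMM-scaled library total) in the library labelled Tom- oil replicate 1 and at 135 CPM in that labelled Tom+ oil replicate 2, whereas the other Tom- libraries held 120 to 263 CPM and the other Tom+ libraries 1225 to 1546 CPM. Values without these 2 doubted libraries are given where a call changed or a member moved by over 1.5 times and 0.1 on the log2 scale, and beside the main results. Hepatocyte markers (Alb, Ttr, Apoa1, Hnf4a, Tat and Cps1) summed to between 86565 and 131494 CPM in every library, and markers of T and B cells to at most 0.539 CPM. Most of the hepatocyte sum was Alb, with group means of 85612 to 114685 CPM. Of the 6 hepatocyte markers 1 was called lower after CCl4 in Tom+ and 0 in Tom-. Counts of Ahr, Tiparp, Nr1i3 and Rora were not whole in 4 to 10 of the 12 libraries, as when reads that match several places are divided, and those of the other 4 members were whole in all. Libraries of the 2 fractions that share a number departed from their group means in the same way, so for Tom+ against Tom- the fit with the number as a block is given where it changes a call. In oil the reporter was at 1794 (Tom-) and 1546 CPM (Tom+) in pair 1 and at 157 and 135 CPM in pair 2. Only pair 3, at 143 and 1225 CPM, separated the fractions as labelled. Counts of oil pairs and blocked oil or interaction fits thus hold 1 such pair of 3.

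**Figure D1:**
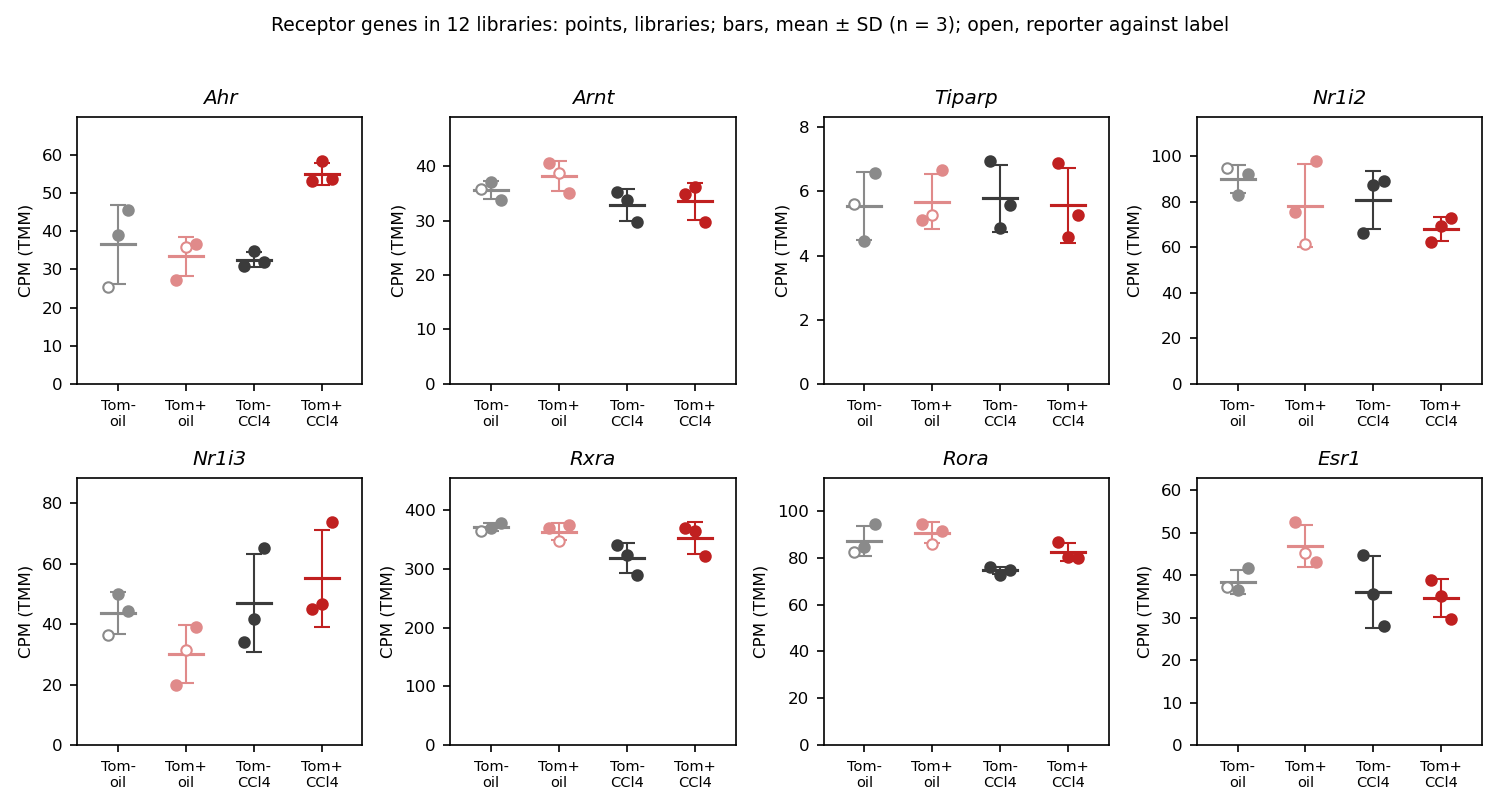
CPM (counts scaled with TMM library totals) of the 8 receptor genes, 1 panel per gene with an axis from 0. Points are libraries, short bars the mean and error bars the SD (n = 3), and open points the 2 oil libraries whose reporter went against the label. The 3 Tom+ CCl4 libraries of Ahr sit between 53.2 and 58.3 CPM, above the other 9, while for most other genes the groups overlap.

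Between genes, levels were compared as TPM, which divides counts by transcript length. Rxra was the highest in every group, with a mean of 160 ± 8.36 TPM in Tom- oil, 156 ± 8.28 in Tom+ oil, 128 ± 14.5 in Tom- CCl4 and 167 ± 18.9 in Tom+ CCl4 (SD, n = 3), above at least 95.3% of the genes tested. Nr1i2 followed with means of 68.9 to 83.2 TPM, and its range overlapped that of no other member in any group. Nr1i3, Rora, Ahr, Arnt and Esr1 had means between 5.83 and 32.0 TPM. Tiparp was the lowest in every group with means of 2.92 to 3.31 TPM, near the 40th percentile of the genes tested, and did not overlap Esr1 in any group. The order of Rora, Ahr and Arnt was less clear: in Tom- oil the ranges of Rora and Ahr and of Ahr and Arnt overlapped, and in Tom+ oil so did those of Rora and Nr1i3, of Nr1i3 and Ahr, and of Ahr and Arnt. In Tom+ CCl4 Ahr was at 23.1 TPM and overlapped neither Nr1i3 above it nor Rora below it.

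**Figure D2:**
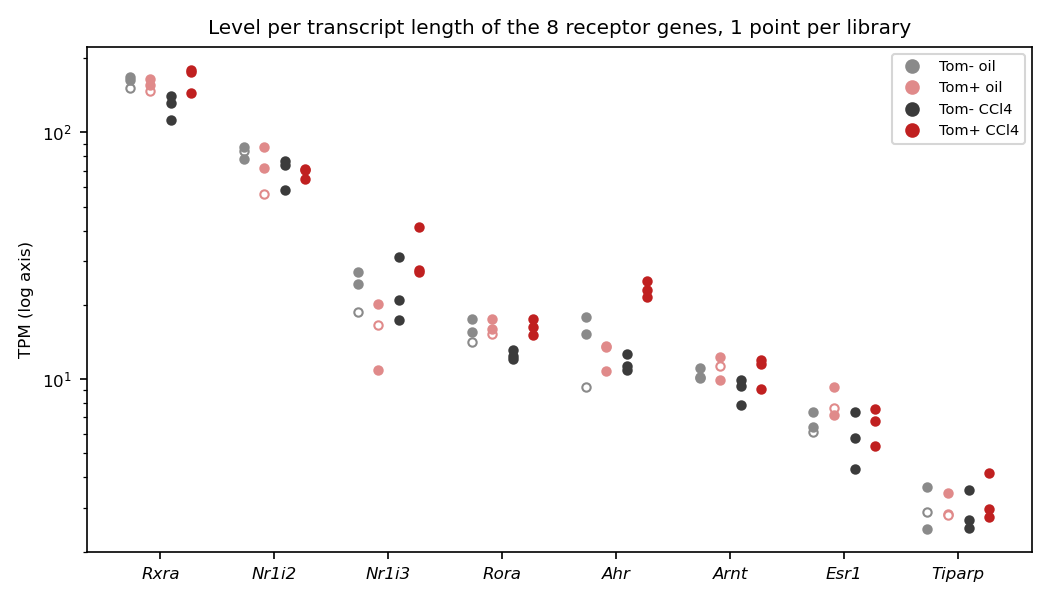
TPM of the 8 receptor genes on a log axis, 1 point per library, coloured by group, with the 2 oil libraries whose reporter went against the label as open points. Genes are ordered by their mean in Tom- oil. Rxra lies at means of 128 to 167 TPM and Tiparp at 2.92 to 3.31 TPM.

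The aryl hydrocarbon receptor gene Ahr (ENSMUSG00000019256; mm10, chromosome 12, 35497974 to 35535038, minus strand) was higher in the Tom+ hepatocytes of CCl4-treated mice than in any other group. It was at 53.2, 58.3 and 53.6 CPM in Tom+ CCl4 (libraries in the order of their numbers, here and below) and at 31.0, 34.9 and 31.9 CPM in Tom- CCl4. In oil it was at 25.4, 39.0 and 45.5 CPM in Tom- and at 27.3, 36.0 and 36.7 CPM in Tom+. The 3 Tom+ CCl4 libraries lay above the other 9, and the ranges of the other 3 groups overlapped. Of all genes, 28.7% did not overlap between Tom+ and Tom- of CCl4-treated mice, and 29.3% did not between CCl4 and oil in Tom+. The means were 55.1 ± 2.85 CPM in Tom+ CCl4, 32.6 ± 2.01 in Tom- CCl4, 33.4 ± 5.22 in Tom+ oil and 36.6 ± 10.3 in Tom- oil (SD, n = 3).

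Within CCl4-treated mice the log2 fold change of Ahr in Tom+ against Tom- was 0.76 (SE 0.17, 95% interval 0.38 to 1.13, adjusted p = 0.0261), higher in 3 of 3 same-numbered pairs. With the replicate number as a block it was 0.76 with an adjusted p of 7.5e-05. The value lay just past the fold threshold. With DESeq2 it was 0.75 (adjusted p = 0.00141) and without the 2 doubted oil libraries 0.74 (adjusted p = 0.00952), both under that threshold. Leaving out any of the 6 CCl4 libraries in turn ended the call, and over 18 alternatives the adjusted p ranged from 7.5e-05 to 0.104. In oil-treated mice the same contrast was -0.14 (95% interval -0.51 to 0.24, adjusted p = 0.907), higher in 1 of 3 pairs, and -0.42 (adjusted p = 0.607) without the 2 doubted libraries. The interaction itself was 0.89 (SE 0.24, adjusted p = 0.0835) and did not pass, but it passed with the replicate block at 0.86 (adjusted p = 5.1e-04) and without the 2 doubted oil libraries at 1.16 (adjusted p = 0.0226). Against oil, Ahr in Tom+ hepatocytes was higher after CCl4 by 0.72 on the log2 scale (95% interval 0.35 to 1.10, adjusted p = 0.0200), past the p threshold and under that on fold, and it was called without the 2 doubted libraries at 0.79 (adjusted p = 0.00579). In Tom- hepatocytes it was -0.17 (adjusted p = 0.535), and -0.37 (adjusted p = 0.0896) without the 2 doubted libraries, and over the sums 0.36 (adjusted p = 0.178).

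Markers of zone and of other cells moved in the same contrast. Of 8 zone 3 markers 8 had a higher estimate in the Tom+ than in the Tom- fraction after CCl4 (median log2 fold change 1.38, 0 called), and of 8 zone 1 markers 8 had a lower one (median -0.92, 4 called). Of 6 endothelial markers 4 were called lower in Tom+, with a summed level of 111 to 149 CPM against 211 to 230 CPM in Tom-. The summed stellate markers were at 35.3 to 72.7 CPM in Tom+ CCl4 and 45.1 to 61.5 CPM in Tom- CCl4, and the Kupffer cell and macrophage markers at 31.2 to 76.0 and 50.1 to 74.7 CPM, with 0 of 6 called in either list. Cholangiocyte markers summed to 8.90 to 18 CPM in Tom+ CCl4 and 8.47 to 12.9 CPM in Tom- CCl4. In oil 8 of 8 zone 3 markers had a lower estimate in Tom+ (median -1.09, 0 called). There the estimate of Ahr was -0.14, and -0.42 without the 2 doubted libraries, neither of them called. The part of zone and of other cells in the Ahr difference was not tested, and in bulk samples more cells of a kind and more RNA per cell cannot be told apart.

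**Figure D3:**
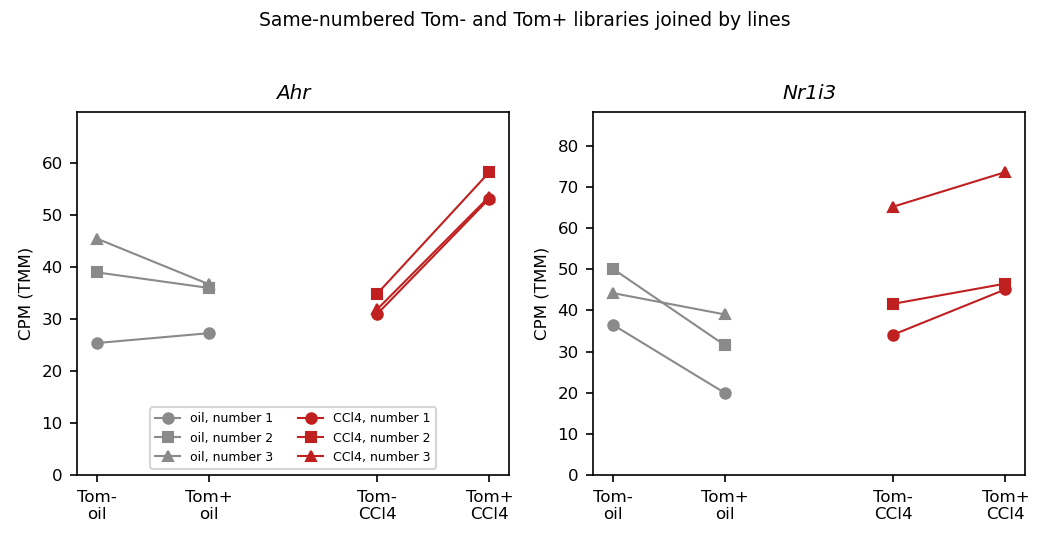
CPM of Ahr (left) and Nr1i3 (right) in Tom- and Tom+ libraries, with same-numbered libraries joined by a line, grey for oil and red for CCl4, axes from 0. For Ahr the line rises in 3 of 3 CCl4 pairs and in 1 of 3 oil pairs, and for Nr1i3 it rises for all 3 CCl4 pairs, whereas all 3 lines of oil fall. Of the oil pairs only that numbered 3 had the reporter as labelled in both libraries.

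Arnt (ENSMUSG00000015522; chromosome 3, 95434388 to 95497240, plus strand), which AhR needs to bind DNA, did not follow Ahr. It was at 34.8, 36.2 and 29.7 CPM in Tom+ CCl4 and at 35.3, 33.7 and 29.7 CPM in Tom- CCl4, a log2 fold change of 0.03 (95% interval -0.19 to 0.24). In oil it was at 35.8, 37.1 and 33.8 CPM in Tom- and 40.5, 38.8 and 35.1 CPM in Tom+. The lowest library of each fraction was replicate 3 under both treatments, and the groups overlapped throughout. Its differences after CCl4 were -0.11 in Tom- (95% interval -0.33 to 0.10) and -0.18 in Tom+ (95% interval -0.40 to 0.03).

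Tiparp (ENSMUSG00000034640; chromosome 3, 65528410 to 65555518, plus strand) encodes an ADP-ribosyltransferase that AhR induces and that represses AhR in turn. It was at 6.87, 4.58 and 5.26 CPM in Tom+ CCl4, at 6.93, 4.87 and 5.56 in Tom- CCl4, at 5.11, 5.27 and 6.66 in Tom+ oil and at 5.59, 4.46 and 6.58 in Tom- oil. All 4 groups overlapped, and the group means spanned 5.54 to 5.78 CPM. The log2 fold change in Tom+ against Tom- of CCl4-treated mice was -0.05, with a 95% interval of -0.48 to 0.38 that does not reach the fold threshold in either direction, and the sign changed when single libraries were left out.

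Of the AhR complex, 4 of 6 listed genes were tested, among them Hsp90aa1, Hsp90ab1 and Ptges3, and 0 were called in any contrast. In Tom+ against Tom- of CCl4-treated mice 4 of 4 estimates were positive, with a median of 0.20. Ahrr, which encodes the AhR repressor, had at most 4 counts in a library, and Arnt2, the partner used mainly in brain, at most 1.

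Of 6 AhR targets, 4 were tested. Cyp1a2, a zone 3 enzyme that oxidises arylamines and caffeine, was called higher after CCl4 in Tom+ hepatocytes. It rose from 98.8, 234 and 94.4 CPM to 403, 645 and 918 CPM, a log2 fold change of 2.20 (SE 0.52, adjusted p = 0.0315), and 2.77 (adjusted p = 0.0224) without the 2 doubted libraries. In Tom- hepatocytes it was at 136, 302 and 181 CPM in oil and 236, 458 and 575 CPM after CCl4, which overlapped (1.03, adjusted p = 0.198). In the same contrasts 4 of 8 zone 3 markers were called higher and 6 of 8 zone 1 markers lower in Tom+, and 0 higher and 1 zone 3 marker lower in Tom-. The part of zone in the Cyp1a2 difference was not tested. Cyp1a1, the classic AhR readout, stayed at a mean of 0.545 to 1.28 CPM in the 4 groups, with a log2 fold change after CCl4 of 1.21 in Tom+ (adjusted p = 0.0983) and 0.54 in Tom- (adjusted p = 0.417). Nqo1, a quinone reductase also controlled by NRF2, gave 0.80 in Tom+ (adjusted p = 0.0798) and 0.02 in Tom-. Between Tom+ and Tom- of CCl4-treated mice, where Ahr was called, 0 of 4 targets were, and their median was 0.30. In the interaction 0 of 4 were called without the block, beside 1.17% of all genes. With the block 2 of 4 were, beside 5.48% of all genes: Cyp1a2 at 1.24 (adjusted p = 1.3e-04) and Nqo1 at 0.83 (adjusted p = 0.0168). Of the oil pairs in that fit only that numbered 3 had the reporter as labelled in both libraries. Zone 3 markers had 8 of 8 positive estimates in the unblocked interaction (median 2.30, 1 called), and their part was not tested. Cyp1b1 reached 13 counts in 1 library at most and Aldh3a1 7.

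The start sites of the members and the AhR targets were searched for GCGTG, the core bound by the AhR-ARNT pair, on either strand, in RefSeq windows of 250 bases before and 50 after the start (GRCm38.p6). Windows were matched for 7 of 8 members, all but Ahr, and for 5 of 6 targets, all but Aldh3a1. Before the start, 28.2% of 32851 windows hold it. Arnt, Tiparp and Rora have it there, and Nr1i2, Nr1i3, Rxra and Esr1 do not. Among the 4 AhR targets tested, Cyp1a1 has it and Cyp1a2, Nqo1 and Ugt1a6a do not, so Cyp1a2, the target called after CCl4, is without it in this window. A match is a description of letters and not of binding. Bases further than 250 before the start were not searched, so the lack of a match says nothing about sites there. The stretches are given 5′ to 3′ on the strand of the gene, with the core, or its reverse complement, in capitals to show its place. Those of Tiparp, Arnt and Rora are at chr3:65528232-65528326, chr3:95434316-95434389 and chr9:68653574-68653668, and that of Cyp1a1 at chr9:57697514-57697608. The first base of the core lies 170, 29, 167 and 54 bases before the start.
Tiparp: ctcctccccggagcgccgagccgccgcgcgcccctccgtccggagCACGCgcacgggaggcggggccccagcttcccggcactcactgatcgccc
Arnt: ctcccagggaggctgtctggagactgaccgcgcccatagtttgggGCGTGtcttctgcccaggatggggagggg
Rora: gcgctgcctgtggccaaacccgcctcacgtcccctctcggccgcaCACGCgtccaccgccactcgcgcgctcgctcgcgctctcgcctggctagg
Cyp1a1: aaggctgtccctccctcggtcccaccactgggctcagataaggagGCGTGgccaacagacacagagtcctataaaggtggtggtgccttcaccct

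Nr1i2 (ENSMUSG00000022809; chromosome 16, 38248323 to 38294824, minus strand), which encodes PXR, the sensor of steroids and many drugs, was called in no contrast. It was at 95.1, 83.1 and 92.2 CPM in Tom- oil and at 75.4, 61.7 and 97.8 CPM in Tom+ oil. After CCl4 it was at 66.3, 87.6 and 89.1 CPM in Tom- and at 62.6, 69.2 and 73.0 CPM in Tom+. Every pair of groups next to each other in the order of means overlapped, and Tom+ CCl4 had the lowest mean, 68.2 ± 5.24 CPM (SD, n = 3). Tom- oil had the highest mean, 90.1 CPM, and its libraries lay above those of Tom+ CCl4, a comparison that was not tested. The log2 fold change was -0.25 in Tom+ against Tom- of CCl4-treated mice (95% interval -0.57 to 0.08), lower in 3 of 3 pairs, and -0.20 in Tom+ after CCl4 (95% interval -0.52 to 0.13). Without the 2 doubted libraries the latter was -0.34 (adjusted p = 0.220), Tom+ against Tom- of oil-treated mice went from -0.20 to -0.03 and the interaction from -0.04 to -0.23, and none was called.

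Nr1i3 (ENSMUSG00000005677; chromosome 1, 171213970 to 171220701, plus strand), which encodes CAR, the receptor behind the induction of Cyp2b enzymes by phenobarbital, had the largest SD relative to its mean of the 8 genes in 3 of 4 groups. It was at 36.5, 50.1 and 44.2 CPM in Tom- oil and at 19.9, 31.5 and 39.0 CPM in Tom+ oil. After CCl4 it was at 34.1, 41.6 and 65.2 CPM in Tom- and at 45.1, 46.5 and 73.6 CPM in Tom+. The 3 Tom+ CCl4 libraries lay above the 3 Tom+ oil libraries, whereas the Tom- groups overlapped. Of all genes, 29.3% did not overlap in that Tom+ contrast. After CCl4 the log2 fold change was 0.87 in Tom+ (95% interval 0.18 to 1.56, adjusted p = 0.113) and 0.11 in Tom- (95% interval -0.57 to 0.79), and 0.91 (adjusted p = 0.239) and 0.00 without the 2 doubted libraries.

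Within pairs, Nr1i3 was higher in the Tom+ library of all 3 CCl4 pairs, whereas in oil the library labelled Tom- was the higher in all 3. Of the oil pairs only that numbered 3 had the reporter as labelled in both libraries. The log2 fold change of Tom+ against Tom- was 0.23 in CCl4 (95% interval -0.45 to 0.91) and -0.54 in oil (95% interval -1.22 to 0.15). The interaction was 0.76 (SE 0.43, adjusted p = 0.383) without the block and 0.82 (SE 0.15, adjusted p = 0.00473) with it, which passed both thresholds. With the block the oil contrast was -0.57 (adjusted p = 0.0343), under the fold threshold. Without the 2 doubted oil libraries the interaction was 0.92 (adjusted p = 0.517) in the fit without the block. Most of the gene is shared with a neighbour: 3304 of its 4414 exon bases (74.9%) lie over exons of Tomm40l on the other strand. The libraries are strand-specific, but the strand setting of the counting was not given in the sources used here, so reads of the 2 genes cannot be told apart. Tomm40l gave 0.61 in Tom+ after CCl4 (adjusted p = 0.113) and 0.23 in Tom-. For Tom+ against Tom- it gave 0.02 in CCl4 and -0.36 in oil, with an interaction of 0.39 (adjusted p = 0.548), all without the block. In oil Tomm40l was at 35.8, 44.5 and 38.9 CPM in Tom- and at 24.3, 31.5 and 36.9 CPM in Tom+, lower in Tom+ in each pair, as Nr1i3 was. After CCl4 it was at 35.2, 41.7 and 62.4 CPM in Tom- and at 41.5, 41.1 and 59.0 CPM in Tom+. Its values with the block are not given here.

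Of 13 CAR and PXR targets, 13 were tested. After CCl4 1 was called higher in Tom- hepatocytes, where 6.33% of all genes were. In Tom+ hepatocytes 4 were called higher and 1 lower, beside 2.90% and 2.34% of all genes. Zone markers moved in the same Tom+ contrast, with 4 of 8 of zone 3 called higher (median 1.83) and 6 of 8 of zone 1 called lower (median -1.28), and their part in the target differences was not tested. Cyp3a11, the main PXR target enzyme, was called in both: it was at 3088, 3723 and 4399 CPM in Tom- oil and 5063, 6819 and 7061 CPM in Tom- CCl4 (log2 fold change 0.76, adjusted p = 0.0183). These Tom- groups did not overlap, as for 36.0% of all genes. In Tom+ it was at 2769, 3780 and 3449 CPM in oil and 4166, 6448 and 6248 CPM after CCl4 (0.75, adjusted p = 0.0262). Without the 2 doubted libraries the Tom- call was lost (0.64, adjusted p = 0.0805) and the Tom+ call was not (0.86, adjusted p = 0.0398).

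In Tom+ hepatocytes Cyp2c55, an enzyme inducible by CAR and PXR ligands, rose from 1.94, 2.98 and 2.15 CPM to 8.49, 54.8 and 97.0 CPM (log2 fold change 4.50, adjusted p = 0.0310). Cyp2c29, a CAR target abundant in zone 3, went from 327, 595 and 439 CPM to 888, 3728 and 4723 CPM (2.78, adjusted p = 0.0391). In both genes the library of replicate 1 was the lowest of its CCl4 group, and without the 2 doubted libraries the fold changes were 4.71 and 3.03, with the calls lost (adjusted p = 0.112 and 0.109). Por, the reductase that feeds electrons to P450 enzymes, rose by 0.94 (adjusted p = 0.0226). Slco1a4, an organic anion uptake transporter, fell by 1.03 (log2 fold change -1.03, adjusted p = 0.0390), and gave -1.02 without the 2 doubted libraries, with the call lost (adjusted p = 0.131). Cyp2b10, the textbook CAR target, gave 1.10 in Tom- and 1.08 in Tom+ and did not pass (adjusted p = 0.327 and 0.398).

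Between Tom+ and Tom- of CCl4-treated mice 0 of the 13 targets were called without the block. With the block 1 was, beside 3.98% of all genes: Cyp2c55 at 1.34 (adjusted p = 3.0e-05). In oil 0 were called without the block and 1 with it, beside 0.234% of all genes: Cyp2c37 at -0.78 (adjusted p = 7.9e-04). In the interaction Abcb1a, which encodes the efflux pump P-glycoprotein, was called lower at -0.89 (adjusted p = 0.0323), but not without the 2 doubted libraries (-0.83, adjusted p = 0.0921). With the block Cyp2c29, Cyp2c37, Cyp2c55 and Gadd45b also passed, in a fit that called 5.48% of all genes. The first 3 had positive and Gadd45b negative values. Of the oil pairs in that fit only that numbered 3 had the reporter as labelled in both libraries. Zone 3 markers had 8 of 8 positive estimates in the unblocked interaction (median 2.30, 1 called), and their part was not tested. Over the sums 0 of 13 were called after CCl4 (median 0.64).

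**Figure D4:**
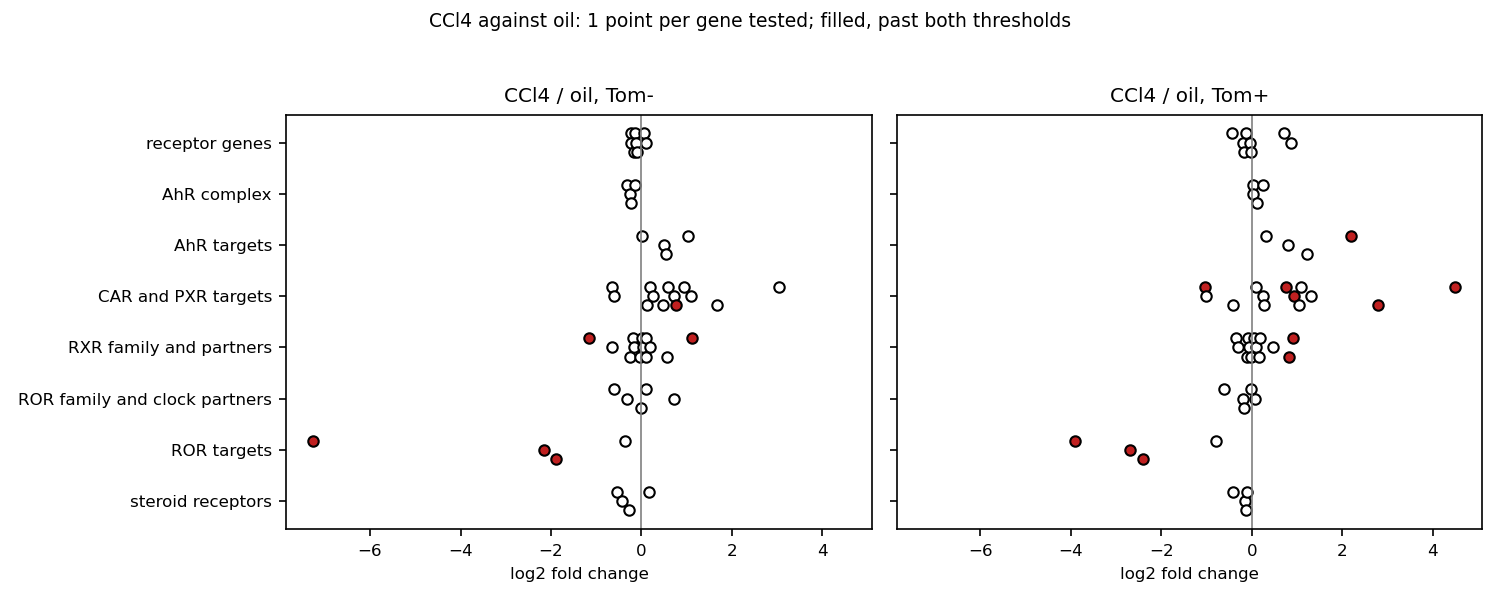
Fitted log2 fold change of CCl4 against oil in Tom- (left) and Tom+ (right) hepatocytes, 1 point per gene tested, for the 8 receptor genes and each list of partners and targets; filled points passed both thresholds. The receptor genes lie between -0.44 and 0.87 with 0 filled, while called genes sit among targets and among RXR partners. The leftmost point is Elovl3, with 0 to 2 counts in the Tom- CCl4 libraries, so that its place depends on the prior count.

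Rxra (ENSMUSG00000015846; chromosome 2, 27676440 to 27762957, plus strand), whose product is the partner of PXR, CAR, the PPARs, LXRs and FXR, was lower in the Tom- hepatocytes of CCl4-treated mice than in oil without passing the test. It was at 365, 370 and 378 CPM in Tom- oil and at 341, 323 and 290 CPM in Tom- CCl4. In Tom+ it was at 369, 347 and 375 CPM in oil and at 369, 365 and 321 CPM after CCl4. The Tom- groups did not overlap, as for 36.0% of all genes in that contrast, and the Tom+ groups did. In Tom- the log2 fold change was -0.22 (95% interval -0.42 to -0.03, adjusted p = 0.105) and in Tom+ -0.05 (95% interval -0.24 to 0.14). Between Tom+ and Tom- of CCl4-treated mice it was 0.15 (95% interval -0.05 to 0.34), higher in 3 of 3 pairs.

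Of 14 genes listed as RXR family members and partners, 13 were tested, all but the vitamin D receptor gene Vdr, which had at most 18 counts. Pparg, the adipogenic partner that also drives fat storage in liver, moved in opposite directions in the 2 fractions. It was at 9.81, 13.9 and 9.34 CPM in Tom- oil and 4.60, 5.17 and 5.09 CPM in Tom- CCl4 (log2 fold change -1.16, adjusted p = 0.00443), and at 3.86, 7.14 and 5.39 CPM in Tom+ oil and 10.8, 10.5 and 7.83 CPM in Tom+ CCl4 (0.83, adjusted p = 0.0282). Its interaction was called at 1.99 (SE 0.31, adjusted p = 0.0106), and at 2.31 (adjusted p = 0.0181) without the 2 doubted libraries. Ppara, which controls fatty acid oxidation, was called higher in Tom+ than in Tom- of CCl4-treated mice, at 115, 85.8 and 90.7 CPM against 64.7, 46.1 and 56.5 CPM (0.80, adjusted p = 0.0133), as was Pparg (0.97, adjusted p = 0.0230). Rarg, a retinoic acid receptor gene, was called higher after CCl4 in both fractions (1.11 in Tom-, adjusted p = 1.5e-04; 0.91 in Tom+, adjusted p = 5.4e-04) and over the sums (0.98, adjusted p = 0.00215). Summed stellate markers, which were called higher for 5 of 6 in Tom- and 4 of 6 in Tom+, stood at 6.30 to 18.1 CPM in oil and 35.3 to 72.7 CPM after CCl4. Their part in the Rarg difference was not tested. The remaining 10 partners, among them the second RXR gene Rxrb, the LXRα gene Nr1h3 and the FXR gene Nr1h4, passed in none of the 6 contrasts. Without the 2 doubted libraries Ppara was also called lower in Tom- after CCl4 (-0.64 with and -0.76 without them, adjusted p = 0.0193). Zone and endothelial markers moved with Pparg and Ppara: in the interaction 8 of 8 zone 3 markers had positive estimates (median 2.30, 1 called) and 6 of 6 endothelial markers negative ones (median -1.05, 1 called), and in Tom+ against Tom- of CCl4-treated mice the zone 3 median was 1.38 and 4 of 6 endothelial markers were called lower. Their part was not tested. With the block Ppara passed in the interaction (0.81, adjusted p = 3.5e-04) and Pparg in oil (-1.03, adjusted p = 0.00545).

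Rora (ENSMUSG00000032238; chromosome 9, 68653786 to 69388246, plus strand) was lowest in the Tom- hepatocytes of CCl4-treated mice, without passing the test. It was at 82.3, 84.6 and 94.5 CPM in Tom- oil and at 76.1, 72.8 and 74.9 CPM in Tom- CCl4. In Tom+ it was at 94.5, 85.7 and 91.6 CPM in oil and at 86.7, 80.4 and 80 CPM after CCl4. Tom- CCl4 lay below every other group, and Tom+ CCl4 overlapped Tom+ oil. Between CCl4 and oil in Tom- 36.0% of all genes did not overlap. The log2 fold change after CCl4 was -0.22 in Tom- (95% interval -0.39 to -0.05, adjusted p = 0.0688) and -0.14 in Tom+ (95% interval -0.31 to 0.03, adjusted p = 0.311). In Tom+ against Tom- of CCl4-treated mice it was 0.14 (95% interval -0.03 to 0.31), without overlap, as for 28.7% of all genes, and higher in 3 of 3 pairs. Over the sums it was at 84.0, 77.0 and 77.4 CPM after CCl4 and 90.5, 86.2 and 93.8 CPM in oil (-0.18, adjusted p = 0.157), without overlap, as for 33.0% of genes.

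Of the ROR family and its clock partners 5 of 6 were tested, among them Nr1d1, Nr1d2, Bmal1 and Npas2, and 0 were called in any of the 6 contrasts without the block. With it Npas2, a partner of BMAL1, passed in the interaction (-0.94, adjusted p = 0.00519). Rorb had 0 counts in all 12 libraries. Of 5 ROR targets listed G6pc1 was not matched, and 3 of the 4 tested were called lower after CCl4 in Tom-, in Tom+ and over the sums, beside 1.59%, 2.34% and 1.44% of all genes, whereas Rora itself did not pass. In the same contrasts 5 of 6 stellate and 6 of 6 endothelial markers were called higher in Tom-, and 4 of 6 stellate markers higher and 6 of 8 zone 1 markers lower in Tom+, and their part was not tested. Cyp7b1, an oxysterol hydroxylase of the alternative bile acid pathway, was at 356, 396 and 326 CPM in Tom- oil and 134, 94.2 and 60.4 CPM in Tom- CCl4 (log2 fold change -1.90, adjusted p = 0.00464). In Tom+ it fell by 2.41 (log2 fold change -2.41, adjusted p = 0.00204). Cyp8b1, which makes cholic acid, was at 151, 231 and 224 CPM in Tom- oil and 31.7, 56.9 and 47.7 CPM in Tom- CCl4 (-2.15, adjusted p = 8.4e-04) and gave -2.69 in Tom+ (adjusted p = 2.5e-04). Elovl3, a fatty acid elongase with a daily rhythm, was at 3.53, 8.24 and 4.23 CPM in Tom- oil and had 2, 0 and 2 counts in Tom- CCl4. In Tom+ it went from 0.607, 1.95 and 2.30 CPM to 8, 4 and 6 counts (-3.92, adjusted p = 0.00124). These calls were also made without the 2 doubted oil libraries. With the block Elovl3 was called lower in Tom+ than in Tom- of oil-treated mice (-1.81, adjusted p = 0.0183). In the interaction with the block it was called with a positive value, whose size depends on the prior count. Insig2 gave -0.36 in Tom- and -0.80 in Tom+ and did not pass (adjusted p = 0.364 and 0.0814).

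Esr1 (ENSMUSG00000019768; chromosome 10, 4611593 to 5005614, plus strand) was highest in Tom+ oil. It was at 52.4, 45.1 and 43.0 CPM in Tom+ oil and at 37.1, 36.4 and 41.7 CPM in Tom- oil. After CCl4 it was at 38.8, 35.2 and 29.7 CPM in Tom+ and at 44.8, 35.6 and 28.0 CPM in Tom-. The Tom+ oil libraries lay above those of Tom- oil, as for 11.7% of all genes, and above those of Tom+ CCl4, as for 29.3%. This uses the labels, which the reporter went against in 2 oil libraries. By reporter level the oil libraries overlapped, at 37.1, 52.4 and 43.0 CPM where it was high and at 36.4, 41.7 and 45.1 CPM where it was low. The log2 fold change in Tom+ after CCl4 was -0.44 (95% interval -0.76 to -0.11, adjusted p = 0.0889), and -0.46 (adjusted p = 0.200) without the 2 doubted libraries. In Tom- it was -0.09 (95% interval -0.41 to 0.24), and over the sums -0.31 (95% interval -0.60 to -0.03, adjusted p = 0.156). Tom+ against Tom- gave 0.29 in oil (95% interval -0.04 to 0.61) and -0.06 in CCl4 (95% interval -0.39 to 0.26), and the interaction -0.35 (adjusted p = 0.407). In CCl4 the library numbered 1 was the highest and that numbered 3 the lowest in both fractions.

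Of the 7 other steroid receptor genes listed, 4 were tested and 0 called in any contrast. Nr3c1, the glucocorticoid receptor gene, passed the p threshold after CCl4 in both fractions with changes under that on fold (-0.43 in Tom-, adjusted p = 0.0182; -0.41 in Tom+, adjusted p = 0.0336). In Tom- so did Nr3c2, the mineralocorticoid receptor gene, with a larger change (-0.55, adjusted p = 0.00499). Esr2 had 0 counts in all libraries, Gper1 at most 2 and Pgr at most 4.

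**Figure D5:**
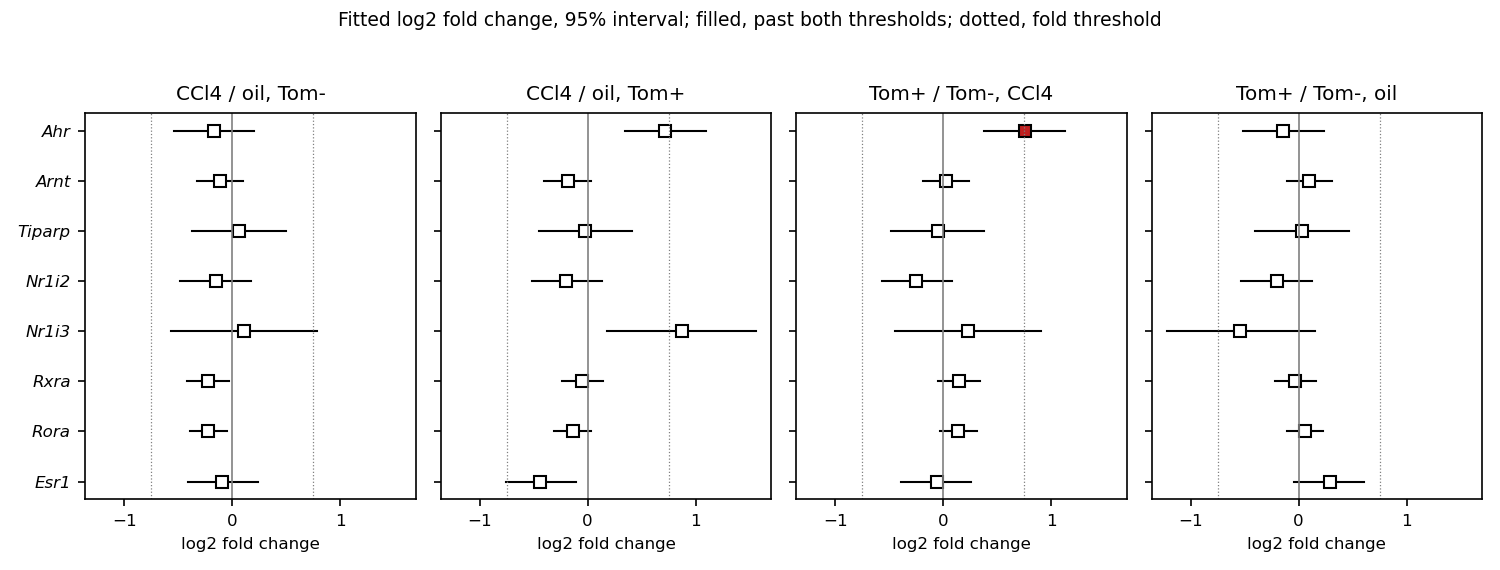
Fitted log2 fold change of the 8 receptor genes in 4 contrasts, with 95% intervals as lines; the filled square passed both thresholds and dotted lines mark the fold threshold of 0.75. Ahr in Tom+ against Tom- of CCl4-treated mice is the filled square, at 0.76 with an interval of 0.38 to 1.13. The widest intervals are those of Nr1i3.

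The genes most like each member were ranked by Pearson's r of log2 CPM over the 12 libraries among 13060 genes with a mean of at least 1 CPM. These values are descriptions, since the libraries share treatment, fraction and number. Ahr was closest to Ncald (0.91), Arid1b (0.91), Cgnl1 (0.89), Atp13a3 (0.89) and Pon3 (0.88). Tiparp was closest to Xaf1 (0.95), Shisa5 (0.87), Usp18 (0.87), Zcchc10 (0.87) and Isg15 (0.85). Nr1i3 was closest to Tomm40l (0.98), with which it shares exon bases, and then to Yaf2 (0.98), Acot1 (0.95), Abcb4 (0.95) and Agpat3 (0.94). Rxra was closest to Ube3c (0.97) and Gab1 (0.97), Rora to Vps13c (0.96) and Mtmr9 (0.94), Arnt to Taf1b (0.96) and Pyroxd1 (0.95), Nr1i2 to Rnf169 (0.89) and Herpud1 (0.87), and Esr1 to Gm16551 (0.95), Dsg1b (0.95) and Tff1 (0.95). Between members the strongest values were -0.92 for Nr1i3 and Esr1, -0.86 for Nr1i3 and Arnt and 0.84 for Arnt and Esr1.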

How the data were processed

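The 12 bulk RNA-seq libraries of sorted hepatocytes were put in 4 groups of 3 by their labels. The authors made strand-specific libraries of polyA RNA. Per the submitters' notes fastp (v0.23.2) was used on the reads, HISAT2 (v2.1.0) for alignment and mm10 as the genome. The counting program, its strand setting and the annotation release were not given in the sources used here. The authors deposited a table of unnormalized expected counts by feature, with its position and length. Between 30.4% and 32.9% of a library's values above 0 were not whole, so counts were rounded, whereas the design had assumed whole ones. Of 54839 features, 54723 (99.8%) matched a symbol.

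The fits used edgeR (v4.0.16) under R (v4.3.3): filterByExpr (17121 genes kept, 17743 over the sums), TMM normalization and the robust quasi-likelihood test in 1 fit of 12 libraries with a coefficient per group, with Benjamini-Hochberg adjustment over all genes tested. A gene was called at an adjusted p under 0.05 and a log2 fold change beyond 0.75. TPM was computed from rounded counts and deposited lengths, and likeness from log2 CPM with a prior count of 2. The fit was tested on simulated data. The Tom+ and Tom- libraries share replicate numbers in the labels. Over 8379 genes every same-numbered pair correlated in its deviations from the group means (0.511 to 0.712 in CCl4, 0.348 to 0.549 in oil), so the number was used as a block. In oil the 2 libraries of pair 1 also held like reporter levels (1794 and 1546 CPM), as did those of pair 2 (157 and 135 CPM). There a shared number and a shared reporter state cannot be told apart. Across treatments the same-numbered values were lower, at 0.00766 to 0.112 in Tom- and 0.00551 to 0.306 in Tom+. Their means were 0.0475 and 0.178, so pairing across treatments was not shown. The means for different numbers, -0.0227 and -0.0857, add no separate evidence, since deviations from a group mean cancel within the group. Alternatives were DESeq2 (v1.42.0), limma-voom (limma v3.58.1), RLE normalization, no filter, adjusted p alone, the replicate block and leaving out libraries. Named genes are the 8 members, list genes that were called and averaged 1 CPM or more (at most 5 per list and contrast), and the 5 genes most like each member. Other list genes were named after their values were seen. The members, lists and alternatives were chosen with earlier results of these data known. Plots were made in matplotlib (v3.10.9) under Python (v3.11.15). Some genes of the lists are not reported here.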

Additional observations from a re-analysis of the deposited data

Results flagged for a closer look

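The difference between Tom+ and Tom- hepatocytes differed between CCl4 and oil for 2 of the 8 receptor genes by the test of the interaction with the replicate number as a block, which called 938 of 17121 genes (5.48%) against 201 (1.17%) without the block. For Ahr the interaction was 0.86 on the log2 scale with the block (edgeR, adjusted p = 5.1e-04) and 0.89 without it (adjusted p = 0.0835), with Tom+ higher in 3 of 3 CCl4 pairs and in 1 of 3 oil pairs. For Nr1i3 it was 0.82 with the block (adjusted p = 0.00473) and 0.76 without it (adjusted p = 0.383), with Tom+ higher in 3 of 3 CCl4 pairs and in 0 of 3 oil pairs. Nr1i3 shares 74.9% of its exon bases with Tomm40l, and reads of the 2 genes cannot be told apart here. Both values use the 2 oil libraries whose reporter went against the label, so of the 3 oil pairs only that numbered 3 was as labelled. Without these libraries the unblocked interaction was 1.16 for Ahr (adjusted p = 0.0226) and 0.92 for Nr1i3 (adjusted p = 0.517). Over 18 alternatives the adjusted p ranged from 5.1e-04 to 0.178 for Ahr and from 0.00473 to 0.588 for Nr1i3. The zone 3 list moved with both, with 8 of 8 interaction estimates positive (median 2.30, 1 called), and its part was not tested.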

How the results depend on the processing

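The call of Ahr in Tom+ against Tom- of CCl4-treated mice, 1 of 8 members, became 0 with DESeq2 (0.75, adjusted p = 0.00141), with RLE normalization (0.75, adjusted p = 0.0276) and without both doubted oil libraries (0.74, adjusted p = 0.00952), and 0 or 1 over leaving out single libraries (0.71 to 0.81). In CCl4 against oil of Tom+ hepatocytes 0 called members became 1 by the adjusted p alone (Ahr), with DESeq2 (Nr1i3, 0.87, adjusted p = 0.0117), with the replicate block (Nr1i3, 0.89, adjusted p = 0.00241) and without both doubted libraries (Ahr, 0.79), and 0 to 1 over single libraries. In the interaction 0 became 1 with DESeq2 (Ahr, 0.89, adjusted p = 0.0166), 2 with the block (Ahr and Nr1i3), 1 without both doubted libraries, and 0 to 1 over single libraries (1 without Tom- oil replicate 1: Ahr, 1.11, adjusted p = 0.0171). The cause was not tested. Across treatments, where pairing by number was not shown, the block changed no other member's call, and the other contrasts kept their 0 calls. Signs reversed for Nr1i3 in CCl4 against oil of Tom- (0.00 without both doubted libraries) and Tiparp of Tom+ (0.03 with limma-voom).

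Leaving out single libraries changed signs as follows. In CCl4 against oil of Tom- the ranges were -0.38 to 0.01 for Ahr, -0.09 to 0.21 for Tiparp, -0.20 to 0.29 for Nr1i3 and -0.28 to 0.07 for Esr1, and of Tom+ -0.21 to 0.11 for Tiparp and -0.09 to 0.01 for Rxra. In Tom+ against Tom- of CCl4 they were -0.04 to 0.11 for Arnt, -0.23 to 0.10 for Tiparp, -0.04 to 0.54 for Nr1i3 and -0.22 to 0.13 for Esr1, and of oil -0.34 to 0.05 for Ahr, -0.10 to 0.18 for Tiparp and -0.05 to 0.00 for Rxra. In the interaction they were -0.14 to 0.01 for Arnt, -0.27 to 0.07 for Tiparp and -0.19 to 0.15 for Nr1i2, and over the sums -0.16 to 0.15 for Tiparp (-0.02 and -0.07 without oil replicates 1 and 2).

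Over all genes, calls in Tom+ against Tom- of CCl4 went from 336 to 559 with DESeq2, 682 with the block and 992 by adjusted p alone; in the interaction from 201 to 587 and 938 with the first 2; in oil from 0 to 15 and 40. In CCl4 against oil, adjusted p alone gave 2761 for 1356 in Tom-, 1622 for 897 in Tom+ and 1452 for 848 over the sums, where DESeq2 gave 1295 and the mean of both fractions 1444. The lowest count of a member in a library was 176.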
